A study of Mus musculus with 4 samples.

Results

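Expression of CXC chemokine ligands was examined in mouse lungs carrying metastases of triple-negative breast cancer (TNBC), using the 10 genes Cxcl1, Cxcl2, Cxcl3, Cxcl5, Cxcl9, Cxcl10, Cxcl12, Cxcl13, Cxcl15 and Cxcl16, chosen by gene name from a table of 56748 genes. Female BALB/cJ mice aged 7 weeks were injected through the tail vein with 4T1-FLuc cells, mouse TNBC cells that carry firefly luciferase, in both groups. The saline group (2 samples) received vehicle, which the labels call PBS. The ADC/cmLumiOpto group (2 samples) received an antibody-drug conjugate (ADC) of an anti-CD276 antibody with the microtubule inhibitor mertansine, together with cmLumiOpto, a gene therapy that depolarizes cancer cell mitochondria by light made from an injected luminescent substrate. The dose of ADC is 16 mg/kg in the labels and 8 mg/kg in the methods of the study, and the labels add the undefined abbreviation Olap to the treatment. Treatment lasted 3 weeks per the labels, whereas the methods set harvest at a loss of 20% of body weight. The labels call the material harvested tumor cells and the methods dissociated lung tissue with metastases, and lung genes were present in the counts. The surfactant gene Sftpc had between 2585 and 76235 reads in the 4 samples, and 6 keratin and adhesion genes of carcinoma and epithelium (Epcam, Krt7, Krt8, Krt18, Krt14 and Cdh1) summed to between 2775 and 3242 CPM (read counts scaled to the normalized library size), of which normal lung epithelium expresses several.

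CXC chemokines are mostly small secreted proteins that attract leukocytes through G protein-coupled receptors. Most ligands with a glutamate-leucine-arginine (ELR) motif ahead of the first cysteine pair bind CXCR2 and recruit neutrophils. Among ligands without it, CXCL9 and CXCL10 are induced by interferon-γ and attract T and NK cells through CXCR3, CXCL12 acts through CXCR4 and the scavenger ACKR3, CXCL13 guides B cells through CXCR5, and CXCL16 is a transmembrane ligand of CXCR6. CXCL15, also named lungkine, is an ELR chemokine made by lung epithelium.

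The grouping by the ELR motif was read from the coding sequences of the 10 genes (GENCODE M21, GRCm38), and 27 bases that end with the cysteine-X-cysteine codons are printed below for all ELR ligands and for the CXCR3 ligands and Cxcl16. Capitals mark the 3 codons directly before the first cysteine, which spell glutamate, leucine and arginine in the first 5 genes and not in the last 3.
Cxcl1: atcgccaatGAGCTGCGCtgtcagtgc
Cxcl2: gtggccagtGAACTGCGCtgtcaatgc
Cxcl3: gtggccagtGAGCTGCGCtgtcagtgc
Cxcl5: gccgcaacgGAGCTGCGTtgtgtttgc
Cxcl15: gacactcaaGAGCTACGAtgtctgtgt
Cxcl9: gtgataaggAATGCACGAtgctcctgc
Cxcl10: ctcgcaaggACGGTCCGCtgcaactgc
Cxcl16: ggcagtgtcGCTGGAAGTtgttcttgt
The motif was found in 5 genes (ELR+ ligands) and was absent from Cxcl9, Cxcl10, Cxcl12, Cxcl13 and Cxcl16 (ELR- ligands). The coding sequences of Cxcl2 and Cxcl3 were 89.7% identical over 300 aligned bases, and Cxcl1 was 78.8% identical to Cxcl2 and 75.7% to Cxcl3. Gaps were left out of this measure, by which Cxcl1 and Cxcl16 also reached 74.3%. Reads that fit more than 1 of Cxcl1, Cxcl2 and Cxcl3 could have been assigned to either or dropped, so their separate values are uncertain to that extent.

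The genes were also close together in the genome. In the positions listed with the counts, 8 of the 10 lay on chromosome 5, with the 5 ELR+ ligands within 146.6 kb and Cxcl9 18.56 kb from Cxcl10. Cxcl15 was listed at chr5:90942393-90950926 on the + strand, Cxcl9 at chr5:92469206-92475938 on the - strand and Cxcl16 at chr11:70344809-70350810 on the - strand. The submitters' processing notes name the build mm39, the methods name GRCm38, and 0 of the 10 genes had the same start and end in the GRCm38 annotation. Cxcl10 lay inside Art3, a gene of the opposite strand with between 15 and 96 reads per sample, and Cxcl16 overlapped Zmynd15 of the opposite strand by 552 bases. Whether strand was used in counting is not given in the sources used here.

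Each sample held between 15263375 and 19675436 counts in total, and 3 reads, the floor of detection by counting error alone, equaled 0.146 CPM in the deepest sample and 0.202 CPM in the shallowest. All 10 ligands passed the expression filter, the lowest with 10 reads (Cxcl3, saline sample 1). Replicates of the ligands differed more than those of most genes. The median absolute log2 difference between the saline samples was 1.13 for the 10 ligands and 0.232 for all 15320 tested genes, and between the ADC/cmLumiOpto samples it was 0.662 and 0.27. Saline sample 2 had the lowest level of 6 of the 10 ligands, and saline sample 1 that of Cxcl1, Cxcl2, Cxcl3 and Cxcl5, as the plot of the ligands by sample shows.

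**Figure D1:**
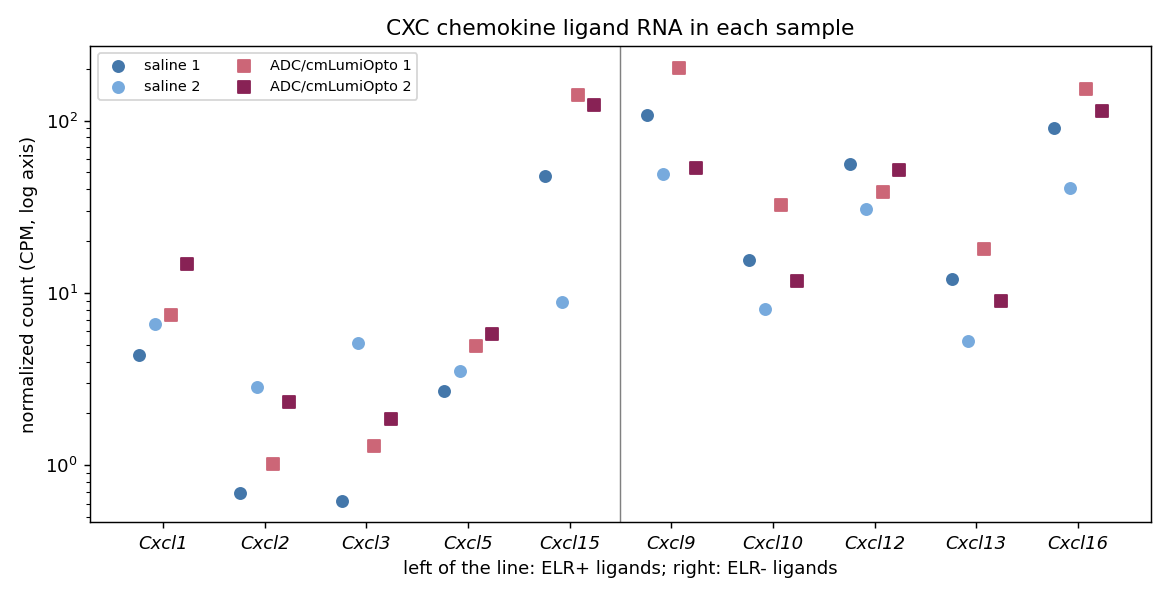
Normalized counts (CPM, log axis) of the 10 CXC ligand genes in the 2 saline samples (circles) and the 2 ADC/cmLumiOpto samples (squares), with ELR+ ligands left of the line and ELR- ligands right of it. Cxcl15 showed the widest range of the 10, from 8.90 to 139.9 CPM, and for Cxcl1, Cxcl5, Cxcl15 and Cxcl16 both squares lay above both circles.

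The comparison of ADC/cmLumiOpto with saline asks which ligand RNAs differed after treatment. None of the 10 ligands passed an adjusted p of 0.05 by the quasi-likelihood test of edgeR, adjusted after Benjamini and Hochberg over all tested genes, which 0% of them passed. Cxcl1, Cxcl15 and Cxcl16 had an unadjusted p under 0.05, all with higher levels after ADC/cmLumiOpto. That is 3 of 10 ligands, against 11% of all tested genes in that direction and 23.2% in either direction. The same 3 had a log2 fold change of 1 or more, as did 9.31% of all tested genes. The edgeR exact test called Cxcl15 and DESeq2 called Cxcl16 at an adjusted p of 0.05, 1 ligand each, where these tests called 7.64% and 8.36% of all tested genes. Without the expression filter 4 ligands passed (8.84% of genes), and with a block for the replicate number, which is not known to pair the samples, Cxcl15 and Cxcl16 passed (3.96%). The fitted log2 fold change was above 0 for 8 of 10 ligands (9 without TMM or with upper-quartile scaling, where Cxcl2 was above 0) and for 52% of all tested genes, with a median of 0.75 for the ligands and 0.028 for all genes. Both treated samples lay above both saline samples for 4 ligands (28.1% of all tested genes did so), and for 0 ligands did both lie below (28.8%). Many genes outside the ligands therefore also had non-overlapping groups, in both directions.

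**Figure D2:**
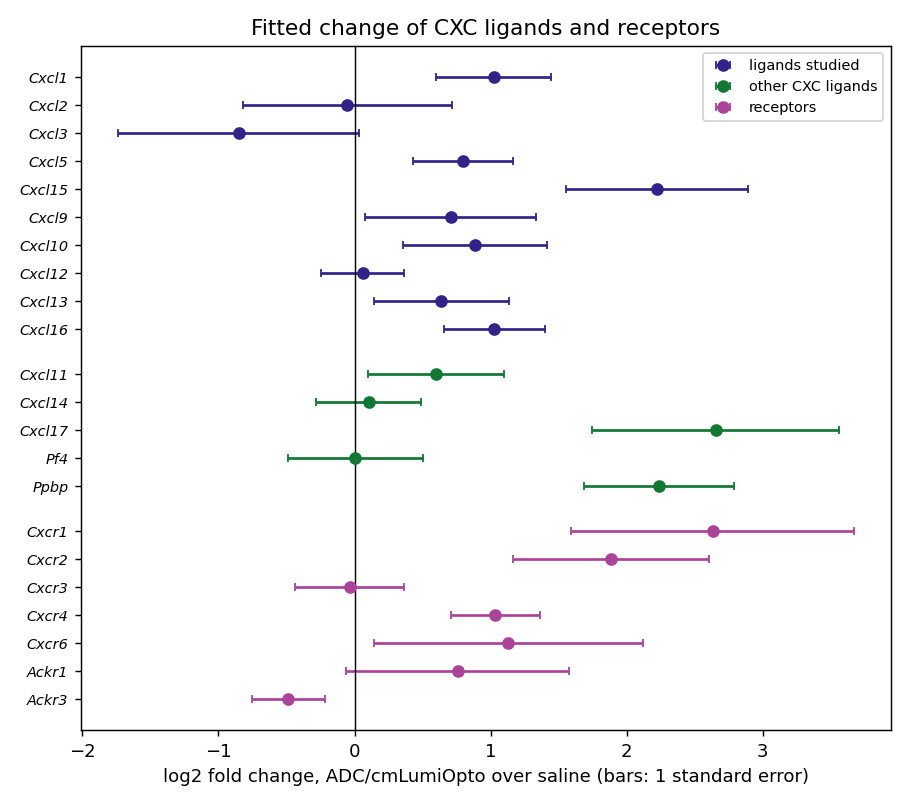
Fitted log2 fold change of ADC/cmLumiOpto over saline (horizontal axis, bars of 1 standard error) for the 10 ligands, 5 other CXC ligands and the 7 tested receptors. Cxcl15 had the highest value of the 10 ligands at 2.22, Cxcl3 the lowest at -0.85, and the bars of Cxcl2, Cxcl3 and Cxcl12 reached or crossed 0.

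Cxcl15 differed most. It had 47.4 and 8.90 CPM in saline samples 1 and 2 and 139.9 and 123 CPM in ADC/cmLumiOpto samples 1 and 2. Both treated samples were high and close to each other, whereas the saline samples differed 5.33-fold. The means were 28.2 ± 27.3 CPM (SD, n = 2) and 132 ± 11.7 CPM (SD, n = 2), and the fitted log2 fold change was 2.22 (SE 0.67, edgeR adjusted p = 0.141). The value was 3.87 without saline sample 1 (edgeR adjusted p = 0.00644) and 1.47 without saline sample 2, so the size rested largely on which saline sample was used. In the former, the spread came from the treated samples alone, which differed 1.13-fold, and the lone saline sample is assumed to vary like them.

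Sftpc and Scgb1a1 had the same order of samples as Cxcl15, as did the ligand Cxcl16, an order held by 9.92% of all tested genes. Sftpc, the surfactant protein C gene of alveolar type 2 cells, had 1017, 174, 4321 and 3426 CPM in saline samples 1 and 2 and ADC/cmLumiOpto samples 1 and 2. The ratio of Cxcl15 to Sftpc, each per gene length, was 0.0227, 0.0248, 0.0157 and 0.0175, a 1.58-fold range, while Cxcl15 itself spanned 15.7-fold. Scgb1a1, the secretoglobin of airway club cells, had 1085, 73.9, 5819 and 2781 CPM, and its ratio with Cxcl15 spanned 5.01-fold. The 9 alveolar type 2 genes of a marker list summed to 1806, 539, 5839 and 5056 CPM, with Sftpc the largest part in each sample. Of these 9, 7 were higher in both treated samples than in both saline samples (28.1% of all tested genes were). The transporter gene Abca3 and the transcription factor gene Etv5 were lower in both (28.8%). The 4 club cell genes summed to 1147, 80.6, 6210 and 2960 CPM, most of it Scgb1a1, so this sum largely repeats that gene. The part of lung epithelial content in the Cxcl15 difference was not tested, and in bulk RNA fewer cells of a type and less RNA per cell cannot be told apart.

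**Figure D3:**
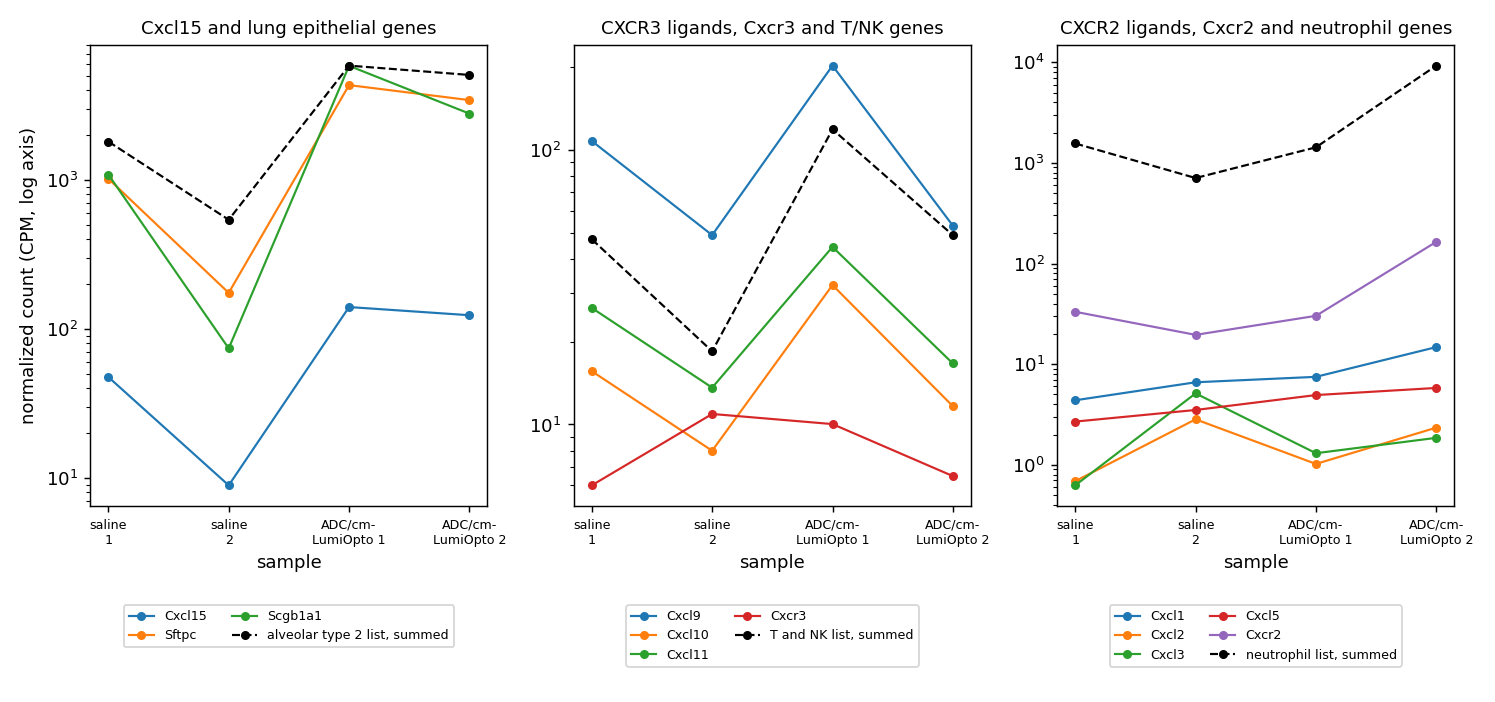
Normalized counts (CPM, log axis) in the 4 samples for Cxcl15 with lung epithelial genes (left), the CXCR3 ligands with Cxcr3 and T and NK cell genes (center), and the CXCR2 ligands with Cxcr2 and neutrophil genes (right); lines only join the values of 1 gene or of 1 summed list (dashed). Cxcl15 ran beside Sftpc, Cxcl9, Cxcl10 and Cxcl11 ran beside each other, and the high Cxcr2 value of 164 CPM in ADC/cmLumiOpto sample 2 had no counterpart of that size in Cxcl2 or Cxcl3.

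The remaining ELR+ ligands, all CXCR2 ligands, were low and did not all share 1 pattern. Cxcl1 and Cxcl5 had 1 order of samples (3.45% of all tested genes), and Cxcl2 and Cxcl3 had another (1.84%). These orders were noticed after the values were seen. Cxcl1, the mouse KC chemokine, had 4.38 and 6.61 CPM in the saline samples and 7.48 and 14.8 CPM in ADC/cmLumiOpto samples. Both treated values were above both saline values, but the lower treated value was close to the higher saline one. The log2 fold change of Cxcl1 was 1.02 (SE 0.42, edgeR adjusted p = 0.213), between 0.44 and 1.43 when any 1 sample was omitted. It was 0.79 with the trend of expression on gene length removed. Cxcl5, known as LIX and made by epithelial cells, had 2.69 and 3.50 CPM in the saline samples and 4.93 and 5.80 CPM after treatment. Its replicates were the closest of the 4, and its log2 fold change of 0.79 (SE 0.37, edgeR adjusted p = 0.248) was 0.55 with the trend of expression on gene length removed.

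Cxcl2, the MIP-2 chemokine, had 11 and 42 reads in saline and 18 and 48 in the treated samples (0.688, 2.83, 1.02 and 2.34 CPM). The groups overlapped, and the log2 fold change was -0.052 (SE 0.77, edgeR adjusted p = 0.977). Cxcl3 had 10 and 76 reads in saline and 23 and 38 in the treated samples (0.625, 5.12, 1.30 and 1.85 CPM). Saline sample 2 stood alone at the top, 8.19-fold above saline sample 1. The log2 fold change of Cxcl3 was -0.85 (SE 0.88, edgeR adjusted p = 0.591), and it was 1.33 without saline sample 2. Saline sample 2 was thus the highest in Cxcl2 and Cxcl3 and the lowest in Cxcl15, all ELR+ ligands of the same cluster.

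The sequences before the start sites of Cxcl1, Cxcl2 and Cxcl3 are shown because these neighbors held the same κB match. The 120 bases upstream of the start site (RefSeq, GRCm38.p6, read along the gene) are given with matches to the κB consensus of NF-κB, searched on both strands, and to the letters TATAAA in capitals.
Cxcl1, chr5:90891125-90891244 (+ strand): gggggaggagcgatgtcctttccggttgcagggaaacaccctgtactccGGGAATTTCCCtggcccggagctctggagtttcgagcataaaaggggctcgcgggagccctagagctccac
Cxcl2, chr5:90903779-90903898 (+ strand): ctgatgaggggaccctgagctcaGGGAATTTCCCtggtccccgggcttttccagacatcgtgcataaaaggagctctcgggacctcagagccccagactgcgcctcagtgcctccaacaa
Cxcl3, chr5:90785981-90786100 (+ strand): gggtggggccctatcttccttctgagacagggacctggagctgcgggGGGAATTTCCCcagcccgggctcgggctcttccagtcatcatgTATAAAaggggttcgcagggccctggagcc
In each, the capitals GGGAATTTCCC match the consensus on both strands in overlapping positions, with the first base at position -71 in Cxcl1, -97 in Cxcl2 and -73 in Cxcl3, counted from the start site. A match was present in 8.46% of 32851 promoter windows of 300 bases, which hold 250 bases before and 50 after a start site, and windows were given for 8 of the 10 ligands (all but Cxcl5 and Cxcl16). Among 12 genes of NF-κB and the cytokines that drive it, 11 were tested, 0 passed in edgeR, 4 were higher and 7 lower. Those with the smallest p were Il1b, Il6 and Il1r1. Il1b, an inducer of the CXCR2 ligands, had 24.3 and 13.3 CPM in the saline samples and 40.7 and 39.7 CPM after treatment (log2 fold change 1.10 ± 0.29 SE, edgeR adjusted p = 0.1246). The cytokine gene Il6 and the interleukin-1 receptor gene Il1r1 were lower in both treated samples, with log2 fold changes of -1.16 and -0.39 and adjusted p values of 0.228 and 0.244 in edgeR.

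Cxcr1 and Cxcr2, genes of receptors for most ELR+ ligands, are markers of neutrophils. Cxcr2 had 33.1 and 19.5 CPM in the saline samples and 30.2 and 164 CPM in ADC/cmLumiOpto samples 1 and 2. Only ADC/cmLumiOpto sample 2 was high, and ADC/cmLumiOpto sample 1 lay between the saline samples. The log2 fold change of Cxcr2 was 1.88 (SE 0.72, edgeR adjusted p = 0.189) and 0.19 without that sample. Cxcr1 had 7 and 0 reads in the saline samples and 20 and 35 after treatment (edgeR adjusted p = 0.199). The 10 neutrophil genes of a marker list summed to 1558, 707, 1427 and 9250 CPM in the same order of samples, with the highest value in the sample with the highest Cxcr2, Cxcl1 and Cxcl5. Cxcl1 in that sample was 1.98-fold above the other treated sample, against 5.44-fold for Cxcr2. Most of the neutrophil sum came from S100a8 and S100a9 in each sample, so it largely repeats those genes. Of the 10 neutrophil genes, 4 were higher in both treated samples than in both saline samples (28.1% of all tested genes were). The part of neutrophil content in the values of these receptors and ligands was not tested.

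The interferon-induced ligands Cxcl9 and Cxcl10 varied together and separated the samples in another way. Cxcl9 had 108 and 48.9 CPM in the saline samples and 203 and 53.0 CPM in ADC/cmLumiOpto samples. ADC/cmLumiOpto sample 1 was the highest and saline sample 1 next, and ADC/cmLumiOpto sample 2 was close to saline sample 2. The log2 fold change of Cxcl9 was 0.71 (SE 0.63, edgeR adjusted p = 0.529), and it was -0.56 without ADC/cmLumiOpto sample 1. Cxcl10 had 15.6, 8.02, 32.2 and 11.7 CPM in the same order, a log2 fold change of 0.89 (SE 0.53, edgeR adjusted p = 0.347) that was -0.021 without ADC/cmLumiOpto sample 1. Cxcl11, the other CXCR3 ligand and not among the 10, had 26.6, 13.6, 44.3 and 16.7 CPM (log2 fold change 0.60 ± 0.50 SE, edgeR adjusted p = 0.503).

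While each of these genes spanned between 3.26-fold and 4.14-fold over the 4 samples, their ratios spanned less. The ratio of Cxcl9 to Cxcl10 per gene length was 5.15, 4.56, 4.70 and 3.39, a 1.52-fold range, and that of Cxcl10 to Cxcl11 spanned 1.23-fold. Ifng, the gene of interferon-γ, had 5, 9, 19 and 10 reads in the 4 samples, highest in ADC/cmLumiOpto sample 1 as Cxcl9 and Cxcl10 were. Between the saline samples the order differed, though the 5 and 9 reads of Ifng there are too few to fix its order. Ifng was lower in saline sample 1 than in saline sample 2 (0.313 against 0.607 CPM), whereas Cxcl9, Cxcl10 and Cxcl11 were higher. The 10 T and NK cell genes of a marker list summed to 47.3, 18.5, 119 and 48.9 CPM, in nearly the order of Cxcl9, and their part in the Cxcl9 values was not tested. The receptor gene Cxcr3 did not share this order, at 6.001, 10.9, 10.03 and 6.49 CPM (log2 fold change -0.035 ± 0.40 SE, edgeR adjusted p = 0.969). Among 12 genes of the interferon-γ axis, all tested, 0 passed in edgeR, 7 were higher and 5 lower, with a median log2 fold change of 0.076. Those with the smallest p were Jak2, Ifngr1 and Jak1. The kinase genes Jak2 and Jak1 had log2 fold changes of -0.40 and -0.32 and the receptor gene Ifngr1 of 0.51, with adjusted p values of 0.2001, 0.261 and 0.206 in edgeR.

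The 250 bases upstream of Cxcl9 and Cxcl10 (RefSeq, GRCm38.p6, read along the gene) are shown because the ratio of these genes spanned less than either gene. Those of Cxcl15 are given beside them, since Cxcl15, like Cxcl16, had the sample order of Sftpc. Capitals mark κB consensus matches, TATAAA, and the core of the interferon-stimulated response element (GAAA, any 2 bases, GAAA), all searched on both strands.
Cxcl9, chr5:92328080-92328329 (- strand): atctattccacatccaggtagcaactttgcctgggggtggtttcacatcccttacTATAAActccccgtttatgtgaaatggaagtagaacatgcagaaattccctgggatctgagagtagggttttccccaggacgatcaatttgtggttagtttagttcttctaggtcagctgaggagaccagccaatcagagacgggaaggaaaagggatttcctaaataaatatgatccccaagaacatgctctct
Cxcl10, chr5:92348890-92349139 (- strand): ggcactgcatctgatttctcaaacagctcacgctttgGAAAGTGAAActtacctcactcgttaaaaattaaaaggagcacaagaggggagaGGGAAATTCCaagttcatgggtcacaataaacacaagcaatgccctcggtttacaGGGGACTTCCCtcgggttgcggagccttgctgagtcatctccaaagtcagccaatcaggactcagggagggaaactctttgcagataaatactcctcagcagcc
Cxcl15, chr5:90794284-90794533 (+ strand): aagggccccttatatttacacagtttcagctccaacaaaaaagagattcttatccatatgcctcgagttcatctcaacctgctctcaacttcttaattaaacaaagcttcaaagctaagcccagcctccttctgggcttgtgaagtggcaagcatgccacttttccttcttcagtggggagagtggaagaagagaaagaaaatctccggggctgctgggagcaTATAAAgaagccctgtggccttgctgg
Cxcl10 held the interferon element core once, from position -213 to -204, and κB matches that begin at -159, -104 and -103, the last of these on both strands and overlapping the one at -104. The core was present in 3.44% of all promoter windows. Neither a κB match nor the interferon core was found in the windows of Cxcl9 and Cxcl15, which held TATAAA (in 13.6% of all windows), from position -27 in Cxcl15 and from -195 in Cxcl9. The interferon-γ activated site TTCNNNGAA was not found in any of the 8 windows and was present in 8.3% of all windows.

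Cxcl16, the transmembrane ligand, had 90.0 and 40.6 CPM in the saline samples and 152 and 114 CPM in ADC/cmLumiOpto samples. Both treated samples were above both saline samples, and the saline samples differed 2.21-fold. The order of samples was that of Cxcl15, Sftpc and Scgb1a1, held by 9.92% of all tested genes. The means were 65.3 ± 34.9 CPM (SD, n = 2) and 133 ± 27.3 CPM (SD, n = 2), and the fitted log2 fold change was 1.03 (SE 0.37, edgeR adjusted p = 0.176). The value was 1.70 without saline sample 1 (edgeR adjusted p = 0.0457) and 0.57 without saline sample 2 (edgeR adjusted p = 0.5425). Zmynd15, which overlaps it on the other strand, had 164, 48, 341 and 324 reads in the same order of samples. Macrophages and dendritic cells are sources of CXCL16, and in the 4 samples the 10 macrophage genes of a marker list summed to 1696, 1580, 2181 and 1622 CPM and the 7 dendritic cell genes to 63.3, 26.6, 110.1 and 73.1 CPM. Their part and that of lung epithelial content in the Cxcl16 difference were not tested. The receptor gene Cxcr6 was low and uneven, with 109 and 9 reads in the saline samples and 221 and 79 after treatment (log2 fold change 1.13 ± 0.99 SE, edgeR adjusted p = 0.521), and its log2 fold change was 3.72 without saline sample 1, 0.27 without saline sample 2 and 0.050 without ADC/cmLumiOpto sample 1. Cxcr6 lies inside Fyco1 of the opposite strand, which had between 341 and 463 reads.

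Cxcl13, the B cell chemokine, had 12.1 and 5.26 CPM in the saline samples and 18.02 and 9.02 CPM in ADC/cmLumiOpto samples, in the same order of samples as Cxcl9 and Cxcl10. The groups overlapped (log2 fold change 0.64 ± 0.49 SE, edgeR adjusted p = 0.468). The log2 fold change was 1.35 without saline sample 1, 0.17 without saline sample 2, 0.058 without ADC/cmLumiOpto sample 1 and 0.32 with the length trend removed. This order of the 4 samples was shared by 4.35% of all tested genes and was noticed after the values were seen. Its receptor gene Cxcr5 had 3, 4, 3 and 24 reads and did not pass the expression filter, and the 6 B cell genes of a marker list summed to 4.94, 2.09, 7.25 and 7.22 CPM, whose part was not tested either.

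Cxcl12, the stromal ligand, had 55.9 and 30.9 CPM in the saline samples and 38.6 and 51.9 CPM in ADC/cmLumiOpto samples. The treated values lay between the saline values, and the log2 fold change was 0.060 (SE 0.31, edgeR adjusted p = 0.925). The fibroblast genes of a marker list summed to 5075, 3467, 1733 and 1407 CPM, lower in both treated samples, with lower fitted values for 6 of the 7. Most of this sum came from collagen genes, and the part of the fibroblast genes in the Cxcl12 values was not tested. The ratio of Cxcl12 to the collagen gene Col1a1 per gene length was 0.0218 and 0.0182 in saline and 0.0709 and 0.103 after treatment. Col1a1 itself had a log2 fold change of -2.02, in a list that ranged from -2.135 to 2.21 (median -1.13). The ratio therefore depends on the gene chosen, and Col1a1 was chosen after its values were seen. Its receptor gene Cxcr4 had 21.6 and 11.4 CPM in the saline samples and 37.6 and 30.0 CPM after treatment, with no overlap (log2 fold change 1.03 ± 0.32 SE, edgeR adjusted p = 0.146). The scavenger receptor gene Ackr3 had 52.6, 87.2, 44.4 and 55.3 CPM (log2 fold change -0.49 ± 0.27 SE, edgeR adjusted p = 0.312). Cxcl12 and its signaling and scavenger receptors thus had fitted changes of 0.060, 1.03 and -0.49, none of which passed the threshold.

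Of the 8 receptor genes, 7 were tested and 0 passed in edgeR's quasi-likelihood test. An unadjusted p under 0.05 was reached by 3, namely Cxcr1, Cxcr2 and Cxcr4, all higher after treatment. Of all tested genes, 11% reached it in that direction and 23.2% in either direction. DESeq2 called 1 receptor, Cxcr4 (8.36% of all tested genes), and the edgeR exact test called 0. Ackr1, the chemokine-binding receptor of venules, had 31 and 4 reads in the saline samples and 33 and 39 after treatment (edgeR adjusted p = 0.606). Among the 5 other CXC ligands, Cxcl17 of airway epithelium had 36 and 2 reads in the saline samples and 159 and 128 after treatment, a log2 fold change of 2.65 (SE 0.91, edgeR adjusted p = 0.164), and 5.74 without saline sample 1 (edgeR adjusted p = 0.0168). Ppbp, a platelet chemokine, had 12, 6, 43 and 63 reads (log2 fold change 2.23 ± 0.55 SE, edgeR adjusted p = 0.123). The other platelet chemokine, Pf4, had 120, 349, 255 and 341 reads and a log2 fold change of 0.0049 (edgeR adjusted p = 0.997). Cxcl14, an ELR- ligand of epithelium and stroma, had 102, 59.1, 116 and 57.4 CPM (edgeR adjusted p = 0.896).

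Levels were compared between genes as RPKM (CPM per kb of the gene length listed with the counts). In the saline group the order of mean RPKM was Cxcl9 (25.97), Cxcl16 (21.6), Cxcl15 (13.2), Cxcl13 (7.53), Cxcl12 (5.31), Cxcl10 (5.25), Cxcl1 (2.93), Cxcl5 (1.66), Cxcl2 (0.851) and Cxcl3 (0.822). The ranges of the 2 samples overlapped between neighbors from Cxcl9 down to Cxcl10 and between Cxcl2 and Cxcl3. Within both saline samples Cxcl9 lay above Cxcl16, Cxcl16 above Cxcl15 and Cxcl13 above Cxcl12. The other overlapping neighbors changed order between the samples. In the ADC/cmLumiOpto group the mean RPKM was highest for Cxcl15 (61.9), followed by Cxcl16 (44.0), Cxcl9 (42.4), Cxcl13 (11.8), Cxcl10 (9.73), Cxcl1 (5.94), Cxcl12 (5.53), Cxcl5 (2.88), Cxcl2 (0.813) and Cxcl3 (0.451). Cxcl15 lay above Cxcl16 in both samples, but Cxcl9 (67.2 and 17.6 RPKM) spanned the range of Cxcl15 (65.8 and 58.0 RPKM) and of Cxcl16. The neighbors from Cxcl13 to Cxcl12 also overlapped, though Cxcl13 lay above Cxcl10 in both samples. The listed length can exceed that of the mRNA, for example 1875 bases for Cxcl1 against 953 in its longest coding transcript, and per transcript length Cxcl1 lay above Cxcl12 in ADC/cmLumiOpto samples 1 and 2 (7.85 against 6.86 and 15.5 against 9.22 RPKM).

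A share of the summed RPKM of the 10 ligands does not depend on library scaling. The ELR+ ligands made up 22.9% and 23.0% of the sum in saline and 32.5% and 48.6% after ADC/cmLumiOpto. The means were 22.9 ± 0.102% (SD, n = 2) and 40.6 ± 11.4% (SD, n = 2), a difference of 17.6 percentage points (exact permutation test, two-sided, p = 0.333, the smallest p that 2 against 2 samples allow). The difference was 9.56 points without ADC/cmLumiOpto sample 2 and 25.7 points without ADC/cmLumiOpto sample 1. Cxcl15 made up 19.2% and 7.75% in the saline samples and 29.2% and 39.9% after treatment. Without Cxcl15 the ELR+ share was 4.56% and 16.5% in the saline samples and 4.69% and 14.5% after treatment, a difference of -0.94 percentage points, so the direction of the ELR+ share rested on Cxcl15. Cxcl9 took 30.7%, 30.0%, 29.8% and 12.1% in the 4 samples, lowest in ADC/cmLumiOpto sample 2, whereas Cxcl16 was between 22.4% and 25.9%. The sum itself was 116 and 54.0 RPKM in the saline samples and 226 and 145 RPKM after treatment (exact permutation test, two-sided, p = 0.333).

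**Figure D4:**
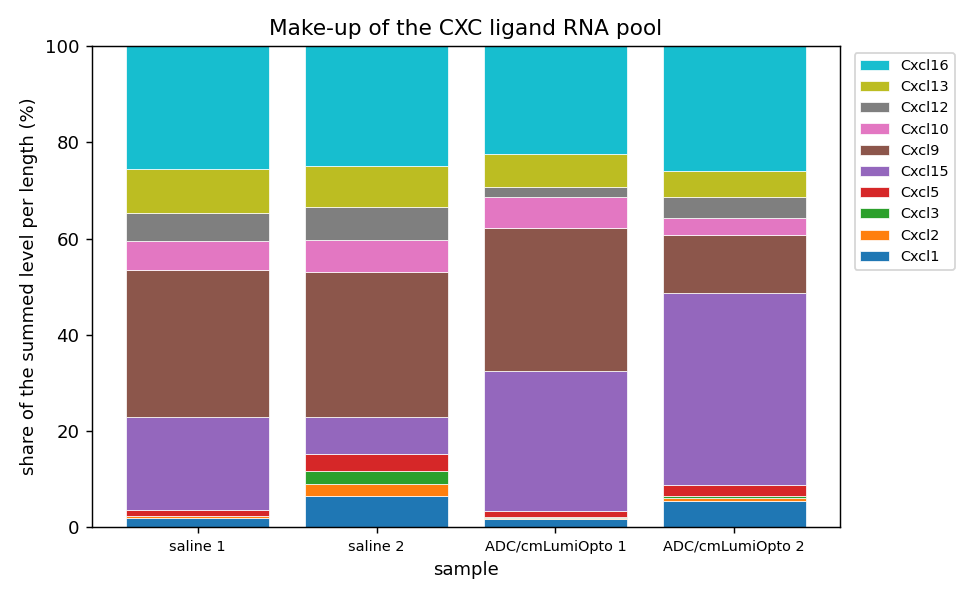
Share of each ligand (% of the summed RPKM of the 10 genes, stacked from 0 to 100) in each of the 4 samples. The Cxcl15 share was 19.2% and 7.75% in saline and 29.2% and 39.9% after ADC/cmLumiOpto, while that of Cxcl16 differed little.

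With each sample left out in turn, Cxcl1, Cxcl5, Cxcl13, Cxcl15 and Cxcl16 kept a log2 fold change above 0 in all 4 cases, whereas Cxcl2, Cxcl3, Cxcl9, Cxcl10 and Cxcl12 changed sign in at least 1. Without saline sample 1 the ligands past an adjusted p of 0.05 in edgeR were Cxcl15 and Cxcl16 (1.34% of all genes tested in that fit). All 10 ligands then had groups that did not overlap, as did 79.1% of all tested genes, since 1 saline sample was left to compare with.

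**Figure D5:**
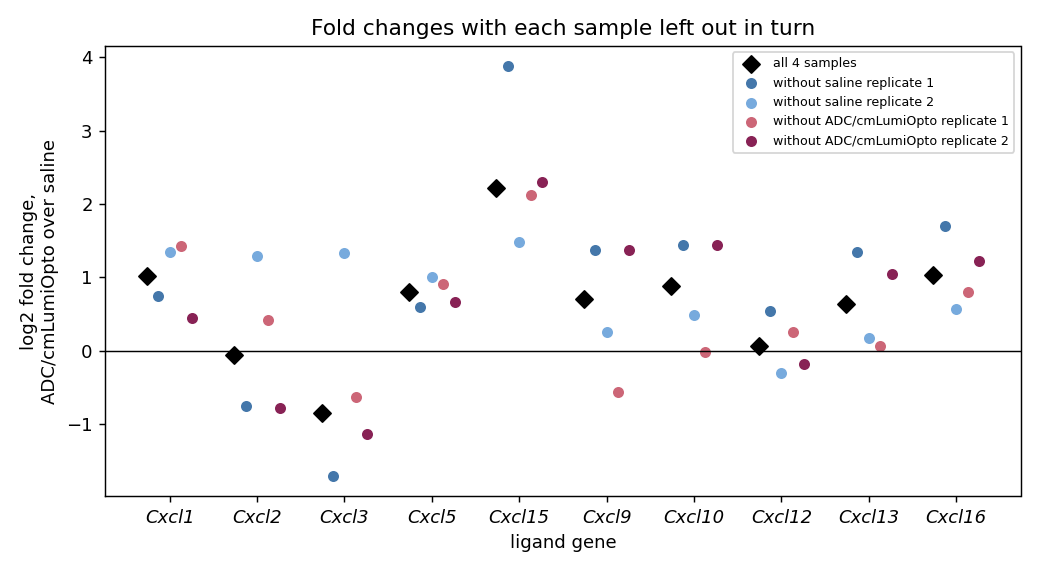
Log2 fold change of ADC/cmLumiOpto over saline for each ligand with all 4 samples (diamonds) and after omission of each sample (circles). Cxcl15 ranged from 1.47 to 3.87 and Cxcl5 from 0.60 to 0.9986, while Cxcl3 ranged from -1.70 to 1.33.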

How the data were processed

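RNA of 2 saline and 2 ADC/cmLumiOpto samples was sequenced after poly(A) selection on an Illumina platform. The study gives 4 samples per group, and the others were not analysed here. The authors aligned reads with HISAT2 (2.1.0 in the methods) and deposited raw read counts per gene without normalization; the submitters' processing notes also name HISAT and TopHat2, and the counting program is not given in the sources used here. Columns were matched to samples by library name. Nothing states that same-numbered samples came from 1 mouse, and p values measure the spread between these samples.

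The counts were fitted with edgeR 4.0.16 under R 4.3.3 (filterByExpr, about 10 counts in 2 samples and 15 in total, TMM, estimateDisp, glmQLFit and glmQLFTest), with Benjamini-Hochberg adjustment over 15320 genes and a threshold of 0.05. Log2 fold changes are ADC/cmLumiOpto over saline with the default prior count, and the standard error is the fold change divided by the square root of F. CPM use TMM-normalized libraries, with factors between 0.973 and 1.04. The tests were checked on simulated counts with a fixed dispersion (a measure of spread) of 0.05, where 200 genes changed by a log2 of 2. The quasi-likelihood test recovered 94.8% of the changed genes. The setting was not matched to the spread of the ligands, so recovery for them is not known. Alternatives were DESeq2 1.42.0, other scalings and filters, the exact test, a block, a length correction (lowess span 0.3), protein-coding genes only and each sample left out.

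The members, lists and tests were chosen with earlier results of these data known. The genes named are the 10 ligands, the receptors and other CXC ligands, and the 3 genes with the smallest p of the cytokine and interferon-γ lists, besides genes singled out after their values were seen (Sftpc, Scgb1a1, Abca3, Etv5, Ifng, Col1a1, S100a8, S100a9, Zmynd15, Art3 and Fyco1). The values of 1 further gene are not reported here.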

Additional observations from a re-analysis of the deposited data

How the results depend on the processing

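The number of the 10 ligands past an adjusted p of 0.05 was 0 and became 1 in DESeq2, 1 in the edgeR exact test, 4 without the expression filter, 2 with a block for the replicate number, and between 0 and 2 with a sample left out. At an unadjusted p under 0.05 it was 3, 2 with the length trend removed, 4 with the block and 5 without the filter. The length trend was a rank correlation of -0.34 between log2 fold change and gene length over tested genes. The receptors past the adjusted threshold were 0 and became 1 in DESeq2, 3 without the filter and 1 with the block. Without the filter 8.84% of all tested genes passed and with the block 3.96%. Non-overlapping ligands were 4, and 3 with the length trend removed. They were between 4 and 10 with a sample left out, when between 74.7% and 81.7% of all tested genes did not overlap. The replicate numbers are not known to pair the samples, and the block used only a shared number. The deviations of same-numbered samples correlated at 0.0844 over genes, which with 2 samples per group cannot exclude a pairing.

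The log2 fold change of Cxcl2 was 0.015 without TMM, 0.029 with upper-quartile scaling and 0.087 with the block. For Cxcr3 it was 0.0080 without TMM, 0.055 with upper-quartile scaling and 0.0053 with at least 10 counts in every sample. For Cxcl14 and Pf4 it was -0.16 and -0.25 with the length trend removed, and -8e-04 for Pf4 without the filter. With a sample left out, values ran from -0.78 to 1.29 (Cxcl2), -1.70 to 1.33 (Cxcl3), -0.56 to 1.37 (Cxcl9), -0.021 to 1.44 (Cxcl10), -0.30 to 0.54 (Cxcl12), -0.42 to 0.46 (Cxcr3), -0.036 to 2.76 (Ackr1), -0.27 to 1.15 (Cxcl11), -0.49 to 0.54 (Cxcl14) and -0.61 to 1.05 (Pf4). The ELR+ share differed by -0.94 percentage points without Cxcl15, and by 13.9 per transcript length, an alternative chosen after seeing the data. The causes were not tested. Of 281 log2 fold changes of ligands and receptors under an alternative, 236 kept direction and side of the threshold, 24 changed sign and 21 passed it.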
